A study of Gallus gallus with 20 samples.

Results

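The extracellular matrix genes described here are 88 of the 28021 genes in the count table of a chicken brain and pituitary study. They were taken by numbered symbol: every collagen chain (COL), laminin chain (LAM), integrin subunit (ITGA and ITGB) and ADAMTS protease. Matrix metalloproteinases (MMP) and tissue inhibitors of metalloproteinases (TIMP) were taken likewise. Fibronectin (FN1), SPARC, perlecan (HSPG2), decorin (DCN) and lumican (LUM) were added by name. Integrin alpha subunits with a letter in place of the number, such as ITGAV (alpha V), are not among the members. The symbol pattern also takes COL4A3BP, a ceramide transporter that is not a collagen, and it was kept as a role of its own. Chains that the table lists without a symbol were not analysed here.

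The extracellular matrix is the protein scaffold between cells. Fibrillar collagens form the ropes of connective tissue and bone, while collagen IV and laminins form the basement membrane sheets under endothelium and around glandular cords. Integrins are the alpha and beta subunit pairs by which cells hold that scaffold, and MMP and ADAMTS proteases cut or mature it, held in check by the TIMPs. In the brain the matrix is poor in fibrillar collagen outside the meninges and vessels, whereas the pituitary is a vascular gland wrapped in a connective tissue capsule and seated in a pocket of the skull base.

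The study compared male Korat chickens, a slow-growing meat type, selected at 10 weeks of age for low or high residual feed intake (RFI), the feed eaten beyond what size and growth predict, so that low RFI birds are the efficient ones. Bulk RNA sequencing was done on 4 groups of 5 libraries each: pituitary gland of low RFI birds, pituitary gland of high RFI birds, hypothalamus of low RFI birds and hypothalamus of high RFI birds. All birds came from 200 males reared in individual cages on commercial feed with free access. The libraries were RNA pools, not single birds. For the hypothalamus the design text gives 10 birds and 5 pools per class. For the pituitary it gives 4 pools of 2 birds per class while 5 libraries per class carry titles. The make-up of each pituitary pool is therefore not certain, nor is it certain that each pituitary library is an independent pool. The tests below take the spread between libraries as their error, so their p-values rest on the libraries being independent.

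Libraries held 10262777 to 11960994 counts in the pituitary and 11418600 to 12647034 counts in the hypothalamus. The summed endocrine markers (GH, PRL, POMC and others) were 19300 to 94300 CPM (counts scaled by library size only) in the pituitary and 12.4 to 61.1 CPM in the hypothalamus, so the tissue labels match. 5 libraries stood apart by markers of neighbouring tissue. Pituitary low RFI 1 had 24200 CPM of oligodendrocyte markers, 3030 CPM of neuron markers and 2630 CPM of astrocyte markers, the most of each among pituitary libraries. It also had the fewest endocrine markers, 19300 CPM. Pituitary low RFI 2 had 1410 CPM of peripheral glia markers, low RFI 4 had 1450 CPM of epithelial markers, and high RFI 4 had 1120 CPM of cerebellar markers. Hypothalamus low RFI 2 had 27800 CPM of choroid plexus and pineal markers. Skeletal muscle markers, listed at 10.3 to 21 CPM in the hypothalamus, exceeded 1000 CPM in pituitary low RFI 2 and 5 and high RFI 2 and 3. Values without these libraries are given for some of the results. A value given only with all libraries may also rest on them.

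More of the matrix genes were higher than lower in the pituitary relative to the hypothalamus. With edgeR's quasi-likelihood test and Benjamini-Hochberg adjustment over 16747 genes, 70 of 88 members (79.5%) differed between the tissues at the threshold of 0.05, and 70.8% of all genes tested did so. By direction, 57 members (64.8%) were higher in the pituitary against 38.3% of all genes, and 13 (14.8%) were lower against 32.5%. With a difference of at least 2-fold as a second condition, 44 members (50%) were higher against 16.8% of all genes and 5 (5.68%) were lower against 14.6%, in all 49 (55.7%) against 31.4%. The median log2 difference, pituitary minus hypothalamus, was 0.99 over the 88 members and 0.07 over all genes. In 27 members (30.7%) every pituitary library lay above every hypothalamus library, which held for 10.9% of all genes; no member had the opposite pattern, which held for 8.06%. Together the members took 0.529% to 2.9% of all counts in pituitary libraries and 0.346% to 0.47% in hypothalamus libraries. Without the 5 libraries that stood apart 58 members were higher and 16 lower, and 12673 of 17398 genes differed in either direction. Leaving out the 4 pituitary libraries rich in muscle markers was an alternative chosen after seeing the data. Then 52 members were higher and 13 lower, and 10981 of 17010 genes differed, against 11862 of 16747 with all libraries. Since these are bulk samples, fewer cells of a type and less RNA per cell cannot be told apart.

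**Figure D1:**
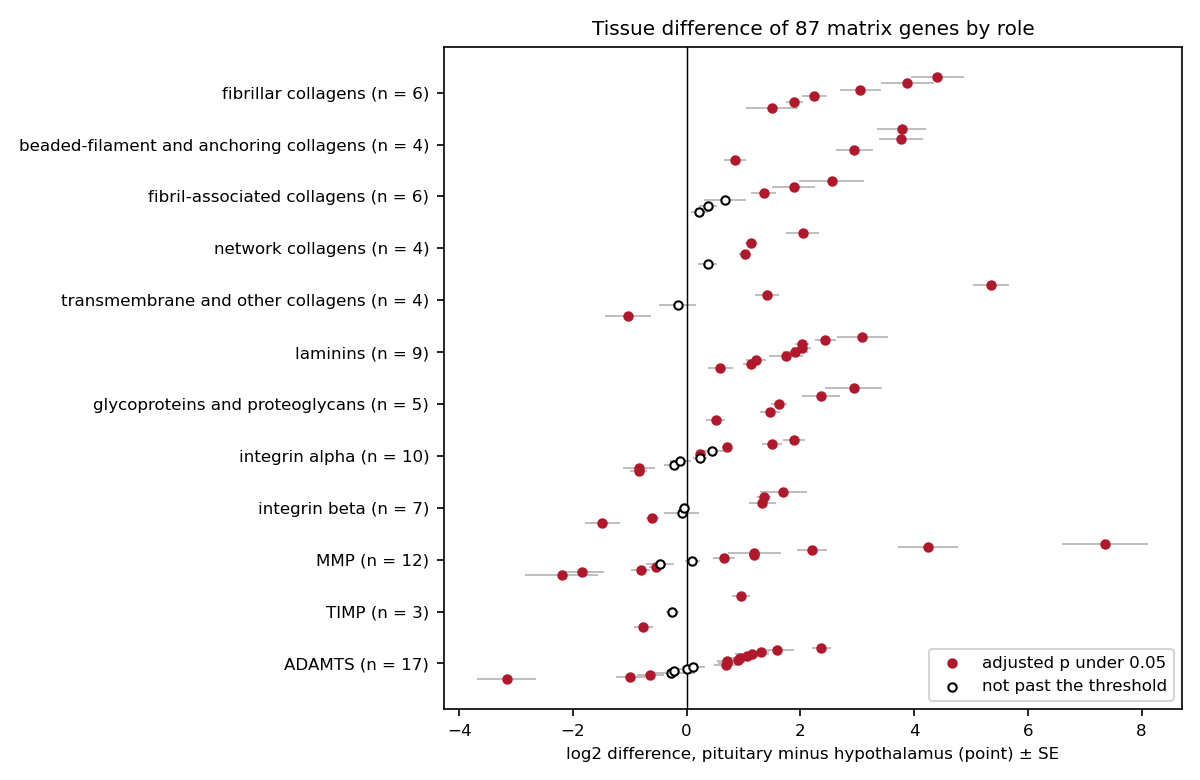
Each point is 1 of 87 matrix genes (COL4A3BP left out), placed by its log2 difference, pituitary minus hypothalamus, with the SE as a bar; filled points passed an adjusted p of 0.05 in edgeR's quasi-likelihood test and open points did not. All 6 fibrillar collagens, all 9 laminins and all 5 glycoproteins and proteoglycans lie to the right of 0, while integrins, MMP, TIMP and ADAMTS genes lie on both sides.

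All 6 fibrillar collagens in the list were higher in the pituitary, with a median log2 difference of 2.64. COL1A1 and COL1A2, which code for the 2 chains of type I collagen of bone, tendon and skin, led them. COL1A1 had 53.3, 551, 131, 237 and 666 RPKM in low RFI pituitary libraries and 257, 1400, 464, 454 and 306 RPKM in high RFI pituitary libraries, against 27.2, 27.7, 32.4, 13.8 and 13 RPKM in low RFI hypothalamus libraries and 9.11, 25.5, 9.10, 23.7 and 24.8 RPKM in high RFI hypothalamus libraries. RPKM here are counts divided by scaled library size and by listed gene length, so that levels of different genes can be set side by side. The tissues did not overlap, the low RFI 1 pituitary library came closest to the hypothalamus and high RFI 2 stood far above the other pituitary libraries. The log2 difference was 4.41 ± 0.47 (SE; adjusted p = 3e-07, edgeR quasi-likelihood), or 21.2-fold. It was 3.42 ± 0.34 without the libraries rich in muscle markers and still passed the test. Those libraries also had the highest summed fibrillar collagen of the pituitary, 1070 to 3130 RPKM against 165 to 929 RPKM in the others. A smaller difference without them is therefore no independent check on the fibrillar collagens.

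COL1A2 ran from 59.9 to 1420 RPKM in the pituitary (median 321) and from 12.3 to 54.7 RPKM in the hypothalamus (median 27.9). Its log2 difference was 3.88 ± 0.47, and 2.88 ± 0.34 without the libraries rich in muscle markers. Both values were close to those of its partner chain although the genes lie on different chromosomes, COL1A1 on chromosome 27 at 5538288 to 5555467 (plus strand) and COL1A2 on chromosome 2 at 23572966 to 23610978 (plus strand), in the GRCg6a build. The ratio of COL1A1 to COL1A2 levels lay between 0.89 and 1.27 in the pituitary and between 0.506 and 1.05 in the hypothalamus. The 2 chains thus kept a narrow ratio across pituitary libraries whose levels differed up to 26.4-fold for COL1A1 and 23.6-fold for COL1A2. COL3A1, the type III chain of soft connective tissue and vessel walls, ran from 23.2 to 179 RPKM in the pituitary (median 74.6) and from 5.54 to 20.4 RPKM in the hypothalamus (median 9.54), a log2 difference of 3.05 ± 0.36, or 2.43 ± 0.31 without the libraries rich in muscle markers. COL5A1 and COL5A2, the type V chains that set fibril width, differed by 2.24 ± 0.22 and 1.89 ± 0.15. COL5A2 (chromosome 7, 504980 to 619779, plus strand) and COL3A1 (chromosome 7, 618031 to 671774, minus strand) overlap by 1749 bases at their ends, and no source used here tells whether counting used strand, so some reads of the shared stretch may be credited to either. COL2A1, the type II chain of cartilage, differed by 1.5 ± 0.45, with tissues overlapping: 1.31 to 17.5 RPKM in the pituitary and 1.27 to 3.14 RPKM in the hypothalamus.

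**Figure D2:**
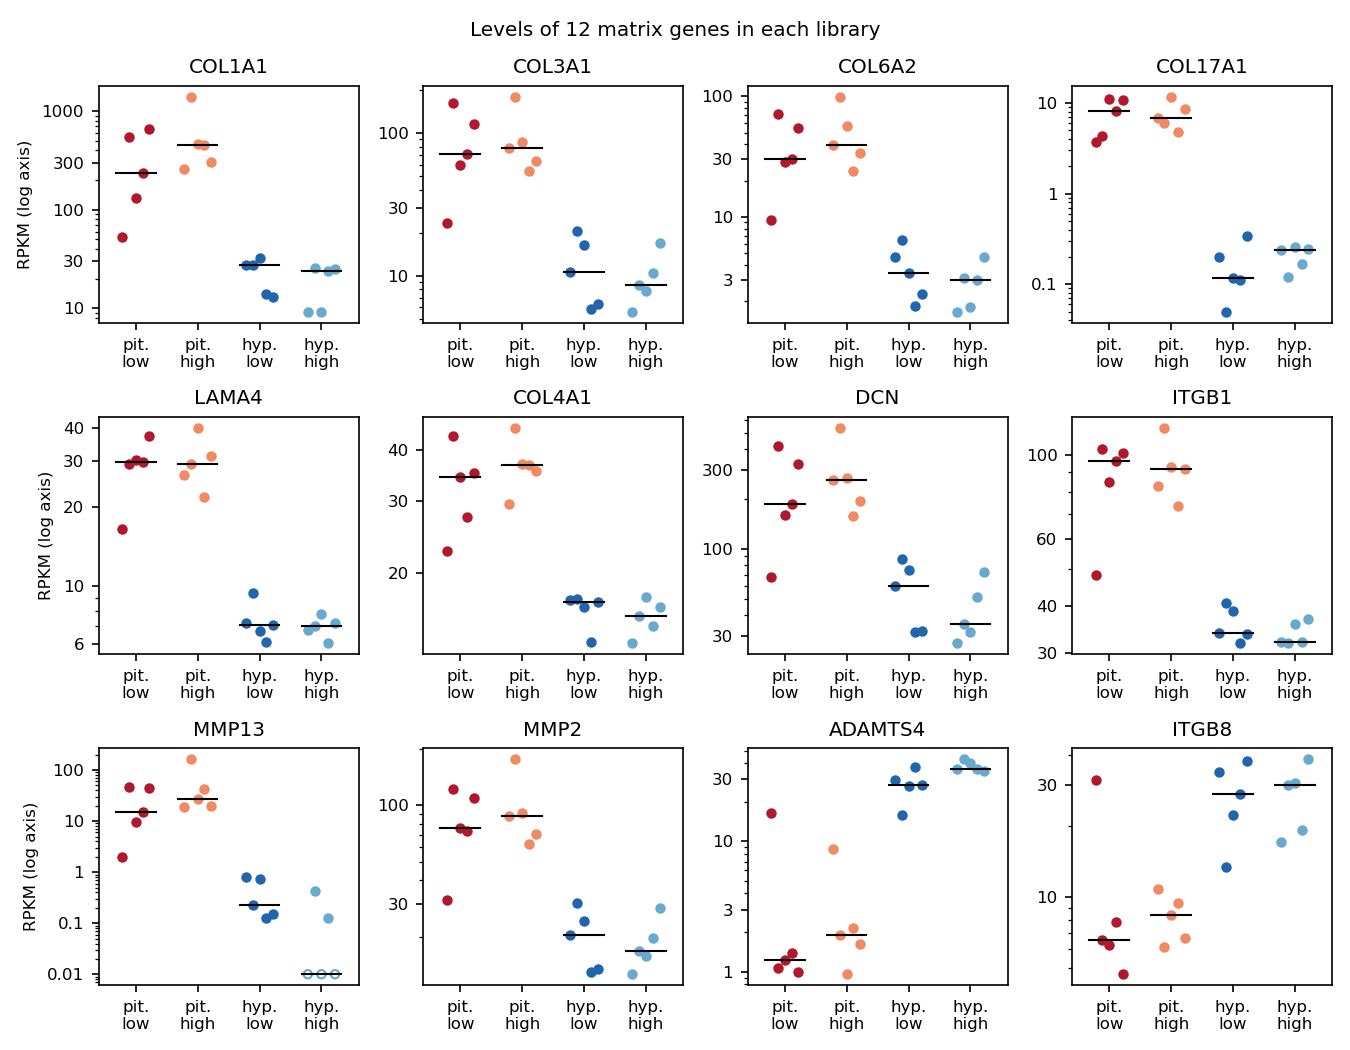
Level of 12 matrix genes in every library on a log axis of RPKM, with low RFI pituitary, high RFI pituitary, low RFI hypothalamus and high RFI hypothalamus from left to right; each point is a library, lines are group medians, and open points at the bottom of the MMP13 panel are libraries with 0 counts. COL1A1, COL17A1, LAMA4, COL4A1, ITGB1 and MMP13 separate the tissues in every library, and ADAMTS4 and ITGB8 are lower in the pituitary except in the low RFI 1 library.

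The 4 chains that build beaded filaments and related assemblies were all higher in the pituitary. Type VI collagen forms the fine filament net around cells, and its 3 listed chains moved alike: COL6A1 differed by 3.78 ± 0.43, COL6A2 by 3.77 ± 0.38 and COL6A3 by 2.95 ± 0.33 on the log2 scale. COL6A1 ran from 4.57 to 39.8 RPKM in the pituitary and from 0.328 to 3.55 RPKM in the hypothalamus, so the tissues did not overlap. COL6A1 (chromosome 7, 6741231 to 6760769) and COL6A2 (chromosome 7, 6782467 to 6808501) are neighbours on the plus strand, 21697 bases apart. COL6A3 lies elsewhere on chromosome 7, at 4846504 to 4899768. COL28A1, a related filament collagen, differed by 0.85 ± 0.20. Without the libraries rich in muscle markers the log2 differences of COL6A1, COL6A2 and COL6A3 were 3.23, 3.06 and 2.27, and all still passed.

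Fibril-associated collagens decorate the surface of other fibrils, and 3 of 6 were higher in the pituitary while 3 did not pass. COL9A1, a cartilage chain, had 0.812, 10.9, 0.572, 0.847 and 3.49 RPKM in low RFI pituitary libraries and 1.10, 11.9, 2.53, 2.34 and 1.22 RPKM in high RFI pituitary libraries, against 0.389 to 1.17 RPKM in the hypothalamus. Its log2 difference of 2.55 ± 0.57 rested largely on low RFI 2 and high RFI 2, and it was 1.94 without pituitary low RFI 2 and 0.83 without the 4 libraries rich in muscle markers. COL22A1, known at muscle and tendon junctions in mammals, differed by 1.88 ± 0.38 and COL12A1 by 1.36 ± 0.22. Without the 4 libraries rich in muscle markers COL22A1 differed by 1.36 ± 0.38 and COL12A1 by 0.84 ± 0.16. COL9A3, COL14A1 and COL20A1 had log2 differences of 0.68, 0.37 and 0.22 that missed the threshold.

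COL17A1 had the smallest p of all members in the tissue comparison. It codes for the transmembrane collagen that anchors epithelial cells to their basement membrane. It had 3.72, 4.35, 11, 8.24 and 10.9 RPKM in low RFI pituitary libraries and 6.83, 6.07, 11.7, 4.77 and 8.54 RPKM in high RFI pituitary libraries, against 0.0492 to 0.345 RPKM in the hypothalamus. Every pituitary library stood far above every hypothalamus library. The log2 difference was 5.35 ± 0.31 (40.7-fold, adjusted p = 2.07e-10, edgeR quasi-likelihood). Unlike type I collagen, COL17A1 was not highest in high RFI 2, and its pituitary levels spanned only 3.72 to 11.7 RPKM. Of the other transmembrane and minor collagens, COL13A1 was higher by 1.41 ± 0.21. COL25A1, a membrane collagen made by neurons, was lower by 1.03 ± 0.41 on the log2 scale (adjusted p = 0.0313, edgeR quasi-likelihood). COL26A1 did not pass, at -0.16. The COL25A1 call was lost when hypothalamus low RFI 5, hypothalamus high RFI 3 or 5, or pituitary low RFI 4 or 5 or high RFI 1 or 5 was left out, with values of -0.98 to -0.91, and without the 4 libraries rich in muscle markers, at -0.72.

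Basement membrane genes were higher in the pituitary by smaller and steadier factors. COL4A1 and COL4A2, the chains of the collagen IV network found in nearly all basement membranes, differed by 1.13 ± 0.11 and 1.03 ± 0.11. COL4A1 ran from 22.6 to 45.5 RPKM in the pituitary and from 13.3 to 17.4 RPKM in the hypothalamus without overlap. These 2 genes sit head to head on chromosome 1, COL4A1 at 140138678 to 140249096 on the minus strand and COL4A2 at 140248816 to 140390143 on the plus strand, sharing 281 bases. Their ratio of levels was 1.35 to 1.84 in the pituitary and 1.36 to 1.87 in the hypothalamus, nearly the same range in both tissues. COL8A1, a short-chain network collagen of vessels and eye, differed by 2.04 ± 0.29, and COL8A2 at 0.37 ± 0.17 did not pass.

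All 9 laminin chains were higher in the pituitary, with a median log2 difference of 1.91. LAMA4, the alpha chain of endothelial basement membrane, ran from 16.4 to 40.1 RPKM in the pituitary (median 29.3) and from 6.03 to 9.36 RPKM in the hypothalamus (median 7.03). The log2 difference was 2.03 ± 0.13 (adjusted p = 7.34e-10, edgeR quasi-likelihood), with no overlap between tissues. LAMB2 differed by 2.44 ± 0.18, LAMA5 by 2.02 ± 0.16, LAMB1 by 1.91 ± 0.22 and LAMC1, the gamma chain shared by most laminins, by 1.13 ± 0.13. Without the libraries rich in muscle markers LAMB1 came to 1.46 ± 0.13, while LAMB2 was 2.44 and LAMA5 2.05. LAMA3 and LAMB3, chains of the epithelial laminin, differed by 1.22 ± 0.18 and 3.09 ± 0.45, but LAMB3 was scarce, with 8 to 40 counts in a pituitary library and 0 to 4 in a hypothalamus library. LAMB4 is listed inside the span of LAMB1 on the same strand of chromosome 1, so its low level, 1.31 RPKM at most, is uncertain. The summed endothelial markers were 342 to 410 CPM in the pituitary and 339 to 407 CPM in the hypothalamus. Of the 8 endothelial markers found none was at 0, and they went both ways, with 4 higher in the pituitary and 2 lower. KDR, a VEGF receptor, had 45.3 to 114 CPM in the pituitary and 15.8 to 28.5 CPM in the hypothalamus, while VWF, the von Willebrand factor, had 69.1 to 134 CPM in the pituitary and 167 to 207 CPM in the hypothalamus. The part of vessels in the laminin result was not tested.

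The 5 matrix glycoproteins and proteoglycans were all higher in the pituitary. SPARC, a collagen-binding protein, was the most abundant member in both tissues, with 559 to 2000 RPKM in the pituitary (median 874) and 559 to 791 RPKM in the hypothalamus (median 685). Its tissues overlapped widely, and its log2 difference of 0.51 ± 0.17 (adjusted p = 0.0128, edgeR quasi-likelihood) became 0.16 ± 0.10 and no longer passed without the libraries rich in muscle markers. Decorin and lumican, small leucine-rich proteoglycans that space collagen fibrils, differed by 2.36 ± 0.33 and 2.94 ± 0.50. Their genes are neighbours on the minus strand of chromosome 1, LUM at 44018283 to 44031180 and DCN at 44050178 to 44202174, 18997 bases apart. FN1, which codes for fibronectin, the adhesive protein on which many matrices assemble, ran from 19.2 to 64.6 RPKM in the pituitary and from 8.59 to 18.3 RPKM in the hypothalamus, a log2 difference of 1.47 ± 0.18. HSPG2, the heparan sulfate proteoglycan of basement membranes, differed by 1.63 ± 0.14. LUM came down to 1.98, DCN to 1.75 and FN1 to 1.15 without the libraries rich in muscle markers, and these calls held.

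Among the 10 integrin alpha subunits with a numbered symbol 4 were higher in the pituitary, 2 were lower and 4 did not pass. ITGAV, the alpha V subunit, is outside that list and did not pass, at 0.09 ± 0.13. Among 7 beta subunits 3 were higher, 2 lower and 2 did not pass. With 38.3% of all genes higher and 32.5% lower, the share of integrins called higher was near that of all genes. ITGB1, the beta subunit shared by most collagen, laminin and fibronectin receptors, had 48.2 to 118 RPKM in the pituitary (median 92.3) and 31.9 to 40.7 RPKM in the hypothalamus (median 33.9). The groups did not overlap and the log2 difference was 1.36 ± 0.12. ITGA8, ITGA4 and ITGA3, alpha partners of that subunit, were higher by 1.89 ± 0.19, 1.5 ± 0.18 and 0.71 ± 0.09. ITGA1, the alpha subunit of a collagen receptor, was higher by 0.24 ± 0.07 and did not pass without the libraries rich in muscle markers, at 0.18 ± 0.09. ITGB3, the beta subunit of platelet and osteoclast vitronectin receptors, was higher by 1.33 ± 0.24, or 0.93 ± 0.19 without the libraries rich in muscle markers.

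ITGB8 was the integrin furthest below its hypothalamus level. It pairs with the alpha V subunit to release active TGF-beta and is made by glia and neural progenitors in mammals. ITGB8 had 31.3, 6.59, 6.25, 7.85 and 4.69 RPKM in low RFI pituitary libraries and 10.8, 6.12, 8.37, 9.46 and 6.72 RPKM in high RFI pituitary libraries, against 13.4 to 38.7 RPKM in the hypothalamus (median 28.7). The low RFI 1 pituitary library alone reached the hypothalamus range. The log2 difference was -1.48 ± 0.31 with it and -1.90 ± 0.20 without it. ITGB2, the beta subunit of leukocyte integrins, was lower by 0.60 ± 0.11 on the log2 scale. ITGA11 and ITGA7, alpha subunits of a collagen and a laminin receptor, were lower by 0.84 ± 0.15 and 0.83 ± 0.28.

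Among 12 MMP genes 6 were higher in the pituitary, 4 were lower and 2 did not pass, and the share called lower was near the 32.5% of all genes. MMP13, the collagenase that cuts fibrillar collagen in bone and cartilage, had the largest difference of all members. MMP13 had 1.96, 46.3, 9.66, 14.8 and 45.4 RPKM in low RFI pituitary libraries and 19.2, 167, 26.6, 43.5 and 19.6 RPKM in high RFI pituitary libraries. In the hypothalamus it had 0.806, 0.232, 0.749, 0.128 and 0.152 RPKM in low RFI libraries and 0, 0.430, 0, 0.124 and 0 RPKM in high RFI libraries. The tissues did not overlap, and the hypothalamus values rest on 26 counts or fewer per library. The fitted log2 difference of 7.36 ± 0.76 (adjusted p = 1.98e-07, edgeR quasi-likelihood) is therefore imprecise in size. It was 6.15 without the libraries rich in muscle markers and 8.20 without hypothalamus high RFI 2.

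MMP9, the gelatinase B of osteoclasts and granulocytes, ran from 0.556 to 34.1 RPKM in the pituitary (median 6.80) and from 0.236 to 0.757 RPKM in the hypothalamus (median 0.552), a log2 difference of 4.24 ± 0.53, or 3.28 ± 0.41 without the libraries rich in muscle markers. MMP2, the gelatinase A of stromal cells, ran from 31.5 to 177 RPKM in the pituitary and from 12.7 to 30.3 RPKM in the hypothalamus. The log2 difference of MMP2 was 2.20 ± 0.26 and the tissues did not overlap. Without the libraries rich in muscle markers that difference was 1.77 ± 0.23. MMP16, a membrane-bound MMP that activates MMP2, was higher by 1.19 ± 0.10. MMP15, another membrane-bound MMP, was abundant in both tissues, 43.3 ± 12.3 RPKM in the pituitary and 40.5 ± 3.92 RPKM in the hypothalamus (mean ± SD, n = 10 each), and did not pass.

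MMP13, MMP10, MMP1 and MMP27 lie in a row on the plus strand of chromosome 1, between 183730975 and 183812551, yet they differed in direction. MMP13 and MMP10 were higher in the pituitary, by 7.36 ± 0.76 and 1.19 ± 0.47 on the log2 scale. MMP1, an interstitial collagenase, and MMP27 were lower, by 2.20 ± 0.64 and 1.84 ± 0.39. MMP10 and MMP1 were scarce in both tissues, with at most 56 and 26 counts in a library. The MMP10 call, at an adjusted p of 0.0304 in edgeR's quasi-likelihood test, was lost when any of 8 single libraries was left out: hypothalamus low RFI 4, hypothalamus high RFI 1, 2, 3 or 5, pituitary low RFI 2 or 5, or pituitary high RFI 2. The values were then 0.98 to 1.12, and the value was 0.30 without the 4 libraries rich in muscle markers. The call was also lost with limma-voom (adjusted p = 0.096), with limma on log2(FPKM + 0.1) (adjusted p = 0.0554), with a replicate block (adjusted p = 0.0617, edgeR) and without the 5 libraries that stood apart (adjusted p = 0.0864, edgeR). MMP1 came to -3.01 without pituitary high RFI 3 and to -3.81 without the 5 libraries that stood apart. MMP28 and MMP24, an epithelial and a neural MMP, were lower by 0.81 ± 0.17 and 0.54 ± 0.13.

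TIMP3, the matrix-bound inhibitor, ran from 30.5 to 69.0 RPKM in the pituitary and from 15.1 to 42.0 RPKM in the hypothalamus and was higher by 0.96 ± 0.16. TIMP4 was lower by 0.76 ± 0.17. TIMP2, an inhibitor that also helps MMP2 activation, was the second most abundant member in the hypothalamus, at 237 to 297 RPKM, and had 162 to 353 RPKM in the pituitary. Its log2 difference of -0.25 ± 0.12 did not pass (adjusted p = 0.0745, edgeR quasi-likelihood), but the call depended on the test. It passed at -0.28 with DESeq2 (adjusted p = 0.0417) and with limma-voom (adjusted p = 0.0375), at -0.31 with limma on both scalings of FPKM, and at -0.28 with a replicate block (adjusted p = 0.0353, edgeR). It also passed at -0.30 without the 5 libraries that stood apart, at -0.44 without the libraries rich in muscle markers, at -0.35 without pituitary low RFI 2 and at -0.30 without pituitary high RFI 2.

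Among 17 ADAMTS proteases 10 were higher in the pituitary, 3 lower and 4 did not pass, beside 38.3% of all genes higher and 32.5% lower. ADAMTS18 was higher by 2.37 ± 0.17 with no overlap, at 1.38 to 2.97 RPKM in the pituitary and 0.237 to 0.819 RPKM in the hypothalamus. ADAMTS5, an aggrecan-cutting enzyme, and ADAMTS9 were higher by 1.59 ± 0.30 and 1.30 ± 0.14. The procollagen N-proteinases ADAMTS14, ADAMTS3 and ADAMTS2, which trim new fibrillar collagen, were higher by 0.94 ± 0.17, 0.91 ± 0.11 and 0.71 ± 0.15. These are smaller differences than those of the fibrillar collagens themselves.

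ADAMTS4 was the member furthest below its hypothalamus level. It cuts lecticans such as brevican and aggrecan, and in mouse brain it is made by oligodendrocytes. ADAMTS4 had 16.5, 1.07, 1.22, 1.39 and 0.995 RPKM in low RFI pituitary libraries and 8.69, 1.90, 0.955, 2.18 and 1.63 RPKM in high RFI pituitary libraries, against 29.6, 16, 26.8, 37.3 and 27 RPKM in low RFI hypothalamus libraries and 36.2, 43.2, 39.8, 36.0 and 35.0 RPKM in high RFI hypothalamus libraries. Low RFI 1 and high RFI 1 stood far above the other 8 pituitary libraries, and low RFI 1 just passed the lowest hypothalamus library. The same 2 pituitary libraries had the most oligodendrocyte markers (4 of 6 found), 24200 and 11700 CPM against 432 to 3570 CPM in the other pituitary libraries and 24800 to 64200 CPM in the hypothalamus. The part of these cells in the result was not tested. The log2 difference was -3.16 ± 0.52 (8.94-fold lower, adjusted p = 3e-05, edgeR quasi-likelihood), and -4.09 ± 0.33 without low RFI 1. ADAMTS10 was lower by 0.99 ± 0.26 and ADAMTS15 by 0.64 ± 0.24, and ADAMTS15 did not pass without the libraries rich in muscle markers (log2 difference -0.64, adjusted p = 0.0761, edgeR quasi-likelihood).

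Pituitary libraries differed widely among themselves in fibrillar collagen. Summed over the 6 fibrillar chains, levels were 165, 1400, 392, 617 and 1460 RPKM in low RFI pituitary libraries and 678, 3130, 1070, 929 and 705 RPKM in high RFI pituitary libraries, against 42.3 to 124 RPKM in the hypothalamus. The low RFI 1 library was the lowest and high RFI 2 the highest. Of 24 collagen genes tested, 17 had their highest pituitary level in high RFI 2 and 16 their lowest in low RFI 1. Over all 87 members tested in the pituitary these counts were 37 and 40, while 9.27% and 27.8% of all genes had their highest and lowest level there. MMP13 and MMP9 followed the same order at the ends: both were lowest in low RFI 1, and highest in high RFI 2.

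The coefficient of variation between the 10 pituitary libraries had a median of 70% over the fibrillar collagens, 43.9% over the MMPs at 1 RPKM or more, 28.5% over the laminins and 25.6% over the network collagens, against 24% over all genes at 1 RPKM or more. Between the 10 hypothalamus libraries it was 35.5% for the fibrillar collagens, 23.6% for the laminins, 17.9% for the network collagens and 17.5% for all such genes. Summed laminins were only 62.0 to 135 RPKM in the pituitary and 26.4 to 41.1 RPKM in the hypothalamus. By these coefficients, laminins and network collagens varied less between pituitary libraries than the fibrillar collagens did.

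Summed markers of some other tissues were highest in pituitary high RFI 2, as were the fibrillar collagens. Summed over the 6 of 7 bone markers found, BGLAP, ALPL, RUNX2, SP7, DMP1 and PHEX, levels were 54.1, 157, 54.2, 92.4 and 131 CPM in low RFI pituitary libraries and 79.8, 349, 106, 79.2 and 78.2 CPM in high RFI pituitary libraries, against 69.8 to 92.3 CPM in the hypothalamus. DMP1, a protein of bone matrix, had 0.404 CPM in low RFI 1 and 61.0 CPM in high RFI 2. Summed over the 6 of 8 skeletal muscle markers found, levels were 16, 1310, 529, 591 and 1410 CPM in low RFI pituitary libraries and 75.5, 2100, 1120, 63.2 and 407 CPM in high RFI pituitary libraries. No bone or muscle marker list as a whole was at 0 in any pituitary library, although MYOG was at 0 in 5 of them. ALPL, which tissues other than bone also make, took 49 to 83 CPM of the summed bone markers in the hypothalamus. DMP1 and SP7, a transcription factor of osteoblasts, were at most 0.873 and 1.75 CPM there. The high RFI 4 pituitary library had 929 RPKM of fibrillar collagen with 63.2 CPM of muscle markers, 8.12 CPM of DMP1 and 3.76 CPM of SP7. In low RFI pituitary libraries the fibroblast and meninges markers found (11 of 14) summed to 232, 510, 244, 222 and 427 CPM. The high RFI pituitary libraries had 409, 661, 370, 273 and 296 CPM, against 225 to 381 CPM in the hypothalamus. Erythrocyte markers ran from 134 CPM in low RFI 1 to 705 CPM in high RFI 2. Other lists did not follow, such as oligodendrocyte markers, with 24200 CPM in low RFI 1 and 3000 CPM in high RFI 2. The part of bone, muscle, connective tissue and blood in these levels was not tested.

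**Figure D3:**
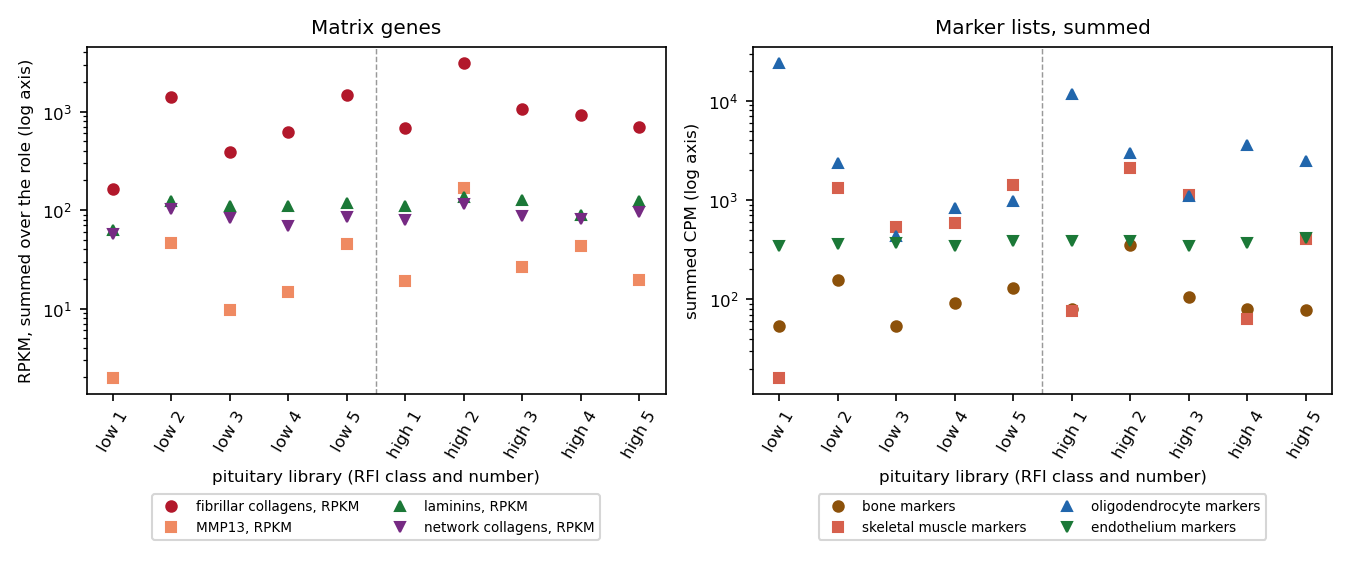
The 10 pituitary libraries, low RFI left and high RFI right of the dashed line, on log axes. Left, RPKM summed over fibrillar collagens, laminins or network collagens, and RPKM of MMP13; right, summed CPM of bone, skeletal muscle, oligodendrocyte and endothelium markers. Fibrillar collagens run from 165 to 3130 RPKM and MMP13 from 1.96 to 167 RPKM, while laminins stay between 62.0 and 135 RPKM and endothelial markers between 342 and 410 CPM.

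Genes that make, space or bind the matrix were described beside the members, and their counts stand beside 38.3% higher, 32.5% lower and a median log2 difference of 0.07 over all genes. Of 20 collagen processing genes tested, 17 were higher in the pituitary and 1 was lower, with a median log2 difference of 1.16. PCOLCE and PCOLCE2, enhancers of procollagen cleavage, were higher by 2.82 ± 0.19 and 2.73 ± 0.25, and COLGALT2, a collagen galactosyltransferase, was lower by 0.91 ± 0.21. Of 13 elastic fibre genes 11 were higher and none was lower (median 1.03), led by FBN3 at 3.17 ± 0.46, a fibrillin. FBN3 was scarce, with means of 1.95 RPKM in the pituitary and 0.217 RPKM in the hypothalamus. Of 18 matricellular genes 12 were higher and 4 lower (median 1.63); POSTN, made by periosteum and other connective tissue, was higher by 4.25 ± 0.49 and SPOCK2, a brain proteoglycan, lower by 1.85 ± 0.25. Of 22 basement membrane and anchoring partners 13 were higher and 6 lower (median 0.38), with the syndecan SDC1 higher by 3.84 ± 0.17 and the talin TLN2 lower by 1.19 ± 0.24.

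Of 15 proteoglycans and link proteins 6 were higher and 4 lower (median -0.21), shares near those of all genes. The bone and connective tissue proteoglycans OMD and ASPN were higher by 7.30 ± 0.77 and 5.85 ± 0.54. Their means were 6.51 and 19.3 RPKM in the pituitary but only 0.0364 and 0.339 RPKM in the hypothalamus. The size of these 2 differences is therefore imprecise. HAPLN4 and HAPLN2, link proteins of brain perineuronal and perinodal matrix, were lower by 4.41 ± 0.85 and 3.03 ± 0.53, whereas the link protein HAPLN3 was higher by 0.74 ± 0.19. Of 10 genes that control matrix proteases 5 were higher and 1 lower (median 0.33). The membrane-anchored MMP inhibitor RECK was higher by 1.46 ± 0.16, and PLAT, the tissue plasminogen activator, was lower by 1.63 ± 0.19.

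In the pituitary no member differed between low and high RFI birds after adjustment. Of 87 members tested 0 passed with edgeR's quasi-likelihood test and Benjamini-Hochberg adjustment over 15786 genes, and 0% of all genes did. The smallest adjusted p of a member was 0.999, and 4 members (4.6%) had an unadjusted p under 0.05, against 1.88% of all genes. All 4 were lower in low RFI, as were 1.05% of all genes at that p. DESeq2 also called 0 members and 0 genes. It had 7 members and 379 of all 15786 genes at an unadjusted p under 0.05. No member had groups without overlap, which 0.253% of all genes had.

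Fold differences of the matrix genes nevertheless leaned toward lower levels in low RFI pituitaries. The median log2 difference, low minus high RFI, was -0.19 over the members and 0.02 over all genes, and 27 members (31%) had a positive value against 55.5% of all genes. All 6 fibrillar collagens, all 4 network collagens and all 5 glycoproteins and proteoglycans had negative values, none past the test. COL1A1 averaged 328 ± 268 RPKM in low RFI and 577 ± 471 RPKM in high RFI pituitaries (SD, n = 5 each), a log2 difference of -0.82 ± 0.69 (SE). Markers of connective tissue leaned the same way. A positive value was found in 0 of 11 fibroblast and meninges, 0 of 6 bone and 0 of 3 cartilage markers tested. Their medians were -0.41, -0.68 and -0.34. By contrast, 4 of 4 oligodendrocyte and 5 of 6 neuron markers had a positive value. The lean of the members depended on which libraries were included. Without high RFI 2 the median over the members was -0.05, 39 members had a positive value, COL1A1 came to -0.17 ± 0.63 and MMP13 to -0.20 ± 0.74, against -1.22 ± 0.86 with all libraries. Without the 4 libraries rich in muscle markers, high RFI 2 among them, the median was -0.20, 26 members had a positive value, COL1A1 came to -1.27 ± 0.55 and MMP13 to -1.64 ± 0.73. Without the 5 libraries that stood apart the median was -0.22 and 22 members had a positive value. Over all genes the median was 0.04 without high RFI 2, 0.04 without the libraries rich in muscle markers and -0.01 without the 5 libraries. The share of all genes with a positive value was not computed for these fits.

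The 4 members with an unadjusted p under 0.05 in the pituitary were MMP11, ITGB5, ADAMTS2 and COL22A1. MMP11, stromelysin-3, had 1.24, 0.991, 0.802, 0.554 and 1.40 RPKM in low RFI and 3.34, 3.49, 1.52, 1.10 and 2.31 RPKM in high RFI pituitaries. The groups overlapped at high RFI 4, the log2 difference was -1.22 ± 0.38 and a library held 9 to 56 counts. ITGB5, the beta subunit of a vitronectin receptor, had 22.6, 25.6, 20.4, 22.9 and 24.1 RPKM in low RFI and 27.2, 36.2, 22.4, 29.6 and 31.6 RPKM in high RFI pituitaries. High RFI 3 lay within the low RFI range, and the log2 difference was -0.34 ± 0.13. COL22A1 and ADAMTS2 differed by -1.30 ± 0.56 and -0.35 ± 0.14, and came to -0.74 ± 0.48 and -0.23 ± 0.13 without high RFI 2. In the other direction, the integrin beta subunit ITGB6 had the smallest p, with 0.92 ± 0.43, and none of these passed adjustment.

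In the hypothalamus no member differed between RFI classes after adjustment. Of 83 members tested 0 passed over 15179 genes with edgeR's quasi-likelihood test, as did 0% of all genes, and the smallest adjusted p was 0.964. 5 members (6.02%) had an unadjusted p under 0.05, against 4.8% of all genes. Of these 3 (3.61%) were higher in low RFI against 2.02% of all genes, and 2 (2.41%) were lower against 2.78%. DESeq2 called 0 members and 5 of all 15179 genes. It had 6 members and 812 of all genes at an unadjusted p under 0.05. The median log2 difference, low minus high RFI, was 0.06 over the members and 0.01 over all genes. No member had groups without overlap, against 0.85% of all genes.

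ADAMTS18 had the smallest p in the hypothalamus, with 0.819, 0.646, 0.474, 0.535 and 0.485 RPKM in low RFI and 0.310, 0.363, 0.238, 0.237 and 0.480 RPKM in high RFI birds. The groups overlapped only through high RFI 5, and the log2 difference was 0.86 ± 0.28. ADAMTS4, with 16 to 37.3 RPKM in low RFI and 35.0 to 43.2 RPKM in high RFI birds, had a log2 difference of -0.48 ± 0.17, and low RFI 4 lay within the high RFI range. Without low RFI 2 the difference was -0.34 ± 0.11. Its lowest library, low RFI 2, is the library with 27800 CPM of choroid plexus and pineal markers and the fewest oligodendrocyte markers of its tissue, 24800 CPM. ITGB3 had 2.32, 2.70, 1.79, 1.53 and 3.09 RPKM in low RFI and 1.72, 1.39, 0.895, 1.78 and 1.45 RPKM in high RFI birds. Low RFI 4 lay within the high RFI range, and the log2 difference was 0.67 ± 0.24. ADAMTS1 and ADAMTS3 differed by -0.35 ± 0.15 and 0.28 ± 0.13. The type I collagen genes COL1A1 and COL1A2, at 0.31 and 0.55, were far from the threshold.

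**Figure D4:**
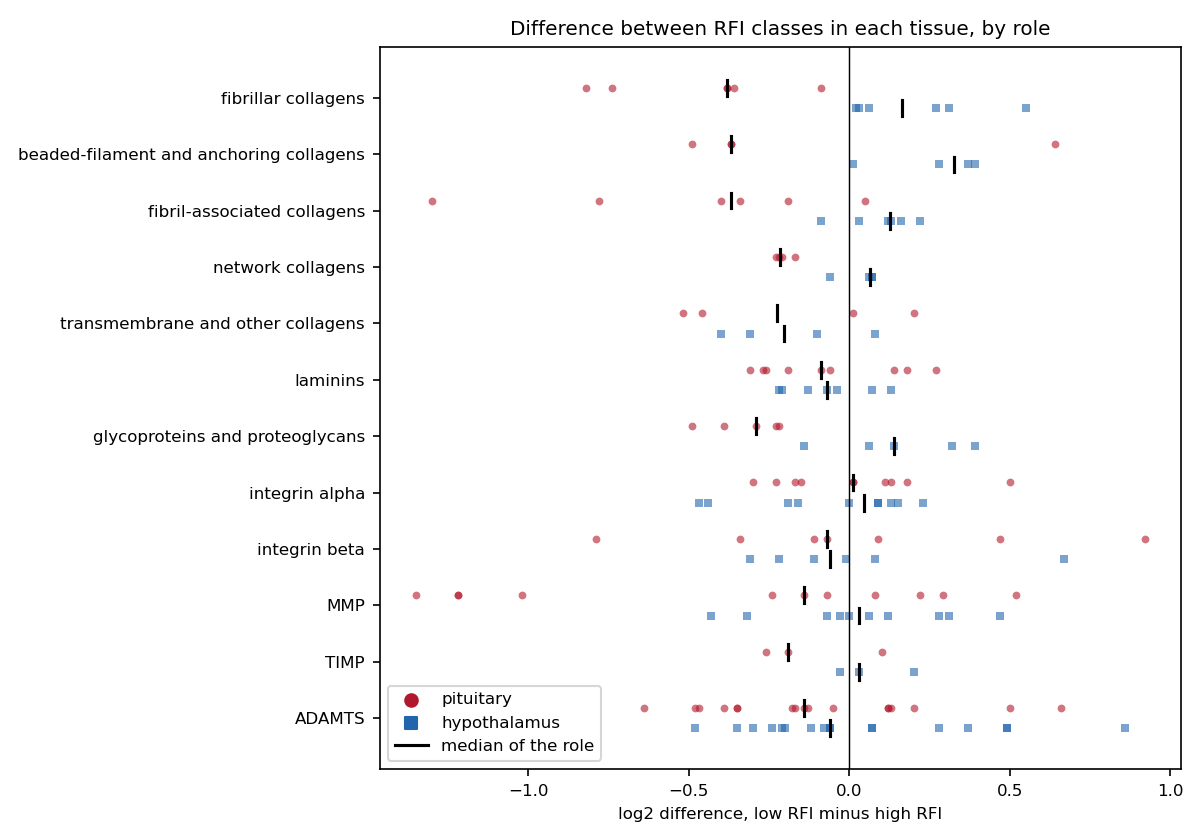
Log2 difference, low RFI minus high RFI, of the matrix genes by role, with pituitary points above and hypothalamus points below within each role; vertical bars are medians of a role. No point passed adjustment. Fibrillar collagens lie left of 0 in the pituitary (median -0.38) and right of 0 in the hypothalamus (median 0.16).

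The effect of RFI was also compared between the tissues, as the pituitary difference minus the hypothalamus difference. Of 88 members 0 passed with edgeR's quasi-likelihood test, as did 0% of 16747 genes. 5 members (5.68%) had an unadjusted p under 0.05, against 2.34% of all genes. All 5 had a lower value in the pituitary, as did 1.25% of all genes at that p. DESeq2 had 6 members and 443 of all 16747 genes at an unadjusted p under 0.05, and called 0 members and 2 genes. ITGB3 had the smallest p, with -1.46 ± 0.47 on the log2 scale: it was -0.79 ± 0.38 in the pituitary and 0.67 ± 0.24 in the hypothalamus. ADAMTS18, ADAMTS2, COL12A1 and ADAMTS3 followed with -1.01 ± 0.34, -0.84 ± 0.29, -1.0 ± 0.44 and -0.46 ± 0.21. ITGB3 was highest in pituitary high RFI 2, at 11.7 RPKM against 3.52 to 6.38 RPKM in the other high RFI pituitaries. Without that library its pituitary difference was -0.40 ± 0.31 and the difference between tissues -1.07 ± 0.40, while without the 4 libraries rich in muscle markers, which include it, the values were -0.88 ± 0.30 and -1.57 ± 0.40. The median over the members was -0.22 with all libraries and -0.06 without high RFI 2, against 0.02 and 0.03 over all genes. It was -0.22 without the libraries rich in muscle markers and -0.26 without the 5 libraries that stood apart, against 0.03 and -0.04 over all genes.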

How the data were processed

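RNA was sequenced from 20 libraries, 5 in each of 4 groups: pituitary and hypothalamus of low and high RFI chickens. The submitters' processing notes name the aligner HISAT2 2.0.5, DESeq2 1.20.0 and the chicken build GRCg6a; no source used here names the counting tool or its strand setting. The authors deposited whole-number counts per gene and FPKM values (counts scaled by the authors for gene length and library size) for 28021 genes. From the deposited counts, levels were computed as RPKM with TMM-scaled library sizes and the listed gene lengths. Differences were tested with edgeR 4.0.16 (quasi-likelihood, robust, filterByExpr) in R 4.3.3, with Benjamini-Hochberg adjustment over all genes tested and a threshold of 0.05; the SE is the log2 difference over the square root of the test's F. The tissue comparison and the difference of RFI effects used all 20 libraries and 4 group means, and each RFI comparison used the 10 libraries of its tissue. The test was tested on simulated data first. Alternatives were DESeq2 1.42.0, limma 3.58.1 on counts (voom) and on deposited FPKM (pseudocounts 0.1 and 1), other scaling and filters, a replicate block, and leaving out libraries; the 5 libraries that stand apart were taken from an earlier account of these data.

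The members, lists and tests were chosen with earlier results of these data known. The text names, in each role, up to 4 members per direction with the largest tissue difference, the 10 most abundant members per tissue, the 5 members of smallest p per direction in each RFI comparison, those whose highest library stands furthest above the next, and the main collagens, glycoproteins and scarce members. Members under the low-count filter were ITGB7, LAMB3, LAMB4, MMP10 and MMP13 in the hypothalamus and MMP1 in the pituitary. The precision of scarce genes is limited by counts. Gene coordinates are those of the deposited table, and no sequence is shown.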

Additional observations from a re-analysis of the deposited data

Results flagged for a closer look

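In each group of 5 libraries, the highest or lowest level of a named matrix gene was set against the rest of its group, by the gap to its neighbour as a share of the group's range. Over 67 genes 34 of 268 groups were flagged. The 268 include groups with too few counts to be flagged, so the share among groups that could be flagged is higher. Chance flags about 1 in 20 groups, but some of these genes were named because their highest library stands far above the next, which raises the number flagged. Of the 34, 13 are the highest value of a single library, pituitary high RFI 2. In that library COL1A1 had 1400 RPKM (257 to 464 in the other high RFI pituitaries), COL1A2 1420 RPKM (275 to 444), COL3A1 179 RPKM (54.5 to 86.7) and LUM 184 RPKM (38.3 to 77.9). MMP13 had 167 RPKM there (19.2 to 43.5), MMP2 177 RPKM (62.4 to 91.5), MMP15 57.8 RPKM (35.9 to 42.2), MMP27 2.0 RPKM (0.449 to 0.862) and TIMP4 40.7 RPKM (12.9 to 20.8). SPARC had 2000 RPKM there (801 to 938), LAMB1 33.2 RPKM (15.2 to 19.6), COL9A1 11.9 RPKM (1.1 to 2.53) and COL9A3 7.2 RPKM (1.07 to 2.8). The same library had the most bone markers (349 CPM) and skeletal muscle markers (2100 CPM) of the 20. It also had the most fibroblast and meninges markers (661 CPM) and erythrocyte markers (705 CPM). The part of these tissues in these levels was not tested.

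Pituitary low RFI 1, the library with 24200 CPM of oligodendrocyte markers, had the highest ADAMTS4 (16.5 RPKM, 0.995 to 1.39 in the other low RFI pituitaries), ITGB8 (31.3 RPKM, 4.69 to 7.85) and MMP24 (19 RPKM, 9.76 to 11.6) of its group, and the lowest HSPG2 (6.34 RPKM, 12.1 to 13.7). That library also had the most neuron markers (3030 CPM) and astrocyte markers (2630 CPM) of the pituitary libraries. Its endocrine markers were the fewest, 19300 CPM. Pituitary high RFI 1 had 11700 CPM of oligodendrocyte markers and 317 CPM of neuron markers. It had the highest ADAMTS4 of its group (8.69 RPKM, 0.955 to 2.18) and the lowest COL4A3BP (11 RPKM, 13.5 to 14.3). The part of these cells in these levels was not tested. Pituitary high RFI 4, the library with the most cerebellar markers, had the highest MMP24 of its group (16 RPKM, 8.84 to 10.2).

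The other flagged values are scattered. Pituitary low RFI 2 was highest in its group for COL9A1 (10.9 RPKM, 0.572 to 3.49) and MMP15 (72.2 RPKM, 30.4 to 40.8). Pituitary low RFI 3 was highest for ADAMTS5 (2.03 RPKM, 0.826 to 1.12) and LAMA5 (9.32 RPKM, 5.62 to 6.34). Pituitary low RFI 4, the library with the most epithelial markers, was highest for LAMB3 (0.926 RPKM, 0.175 to 0.366) and LAMB4 (1.31 RPKM, 0.244 to 0.469). In the hypothalamus, low RFI 2 was highest for COL22A1 (0.964 RPKM, 0.239 to 0.324) and COL9A3 (3.06 RPKM, 0.785 to 1.29), and low RFI 4 was lowest for COL4A1 (13.5 RPKM, 16.5 to 17.2). Among high RFI hypothalamus libraries, ITGA1 was highest in library 1 (8.22 RPKM, 6.73 to 6.97), TIMP4 in library 2 (42.1 RPKM, 32.8 to 35.5), MMP27 in library 4 (8.69 RPKM, 3.14 to 4.5) and COL6A1 in library 5 (2.92 RPKM, 0.573 to 0.941), and MMP9 was lowest in library 3 (0.236 RPKM, 0.505 to 0.567).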

How the results depend on the processing

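Between tissues the count of members called was 70, and 65 to 74 under every alternative run. The count higher in the pituitary was 57, and 52 to 59. Over all genes the count called was 11862 of 16747, and 10981 to 13135 under the alternatives, with 16381 to 25373 genes tested. The count at least 2-fold lower was 5, but 3 with limma on log2(FPKM + 1) and 10 without the 5 libraries that stand apart. In both RFI comparisons and in the difference of RFI effects, 0 members were called under every alternative run. Leaving out each library in turn gave 68 to 73 members called between tissues, 55 to 59 higher and 12 to 15 lower, 46 to 51 at least 2-fold different, 41 to 45 at least 2-fold higher and 4 to 6 at least 2-fold lower.

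Same-numbered libraries did not deviate together in every pair (correlations of -0.35 to 0.38, not above 0.1 in every pair), so numbers were not treated as pairs. Some pairs did correlate: low and high RFI pituitary 2 at 0.38, and pituitary and hypothalamus low RFI 1 at 0.283. In both of these the own number was the highest match. Low and high RFI pituitary 3 and 5 had 0.213 and 0.236, without being the highest match. With the number as a replicate block, 72 members were called between tissues (57 higher, 15 lower) and 0 in the other comparisons. Over all genes 11574 of 16747 were called between tissues in that fit.

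Of named members, MMP15 changed direction between tissues, at 0.10 in the main result, to -0.06 without the 5 libraries, -0.11 without those rich in muscle markers and -0.02 without pituitary low RFI 2; leaving out single libraries gave -0.02 to 0.16. Without the 5 libraries ADAMTS10 reversed in the pituitary RFI comparison (-0.35), and ADAMTS10 (-0.38), MMP27 (-0.35) and ADAMTS4 (-1.22) reversed in the difference of RFI effects. There ADAMTS4 was also -0.90 without pituitary low RFI 1 (-0.90 to 1.82 over single libraries left out), and ADAMTS1 was -0.15 without the muscle-rich libraries. None of these had passed a test, and the cause was not tested. Depth limits scarce members such as MMP1, MMP10 and LAMB3.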
